A study of Homo sapiens with 2 samples.

Results

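The clustered protocadherin interval of chromosome 5 (hg19, 140150000–140900000, a length of 750 kb) was described from the H3K27ac HiChIP contacts of HCT116 cells, an established line derived from a human colorectal carcinoma. Its loops were chosen by position alone. A loop joined 2 different anchors whose midpoints were at most 2 Mb from each other, and at least 1 of them overlapped the interval. Replicate 1 held 365 such loops of 1017525, and replicate 2 held 424 of 1156895, a mean of 394.5 ± 41.7 (SD, n = 2). Both replicates shared 1 set of anchors, 88 of which overlapped the interval among 250217 on the autosomes and chromosome X. There were 2 replicates, both of the same condition, and the comparisons are therefore between regions. Chromatin was cut with MboI and religated, and ligated fragments that carried acetylated H3K27, a mark of active enhancers and promoters, were then enriched with an antibody. Whether the replicates came from separate cultures was not stated, so the spread between them may be technical. The measured values were raw counts of paired-end tags. They summed to 1885481 and 2131466 in replicates 1 and 2, with same-anchor pairs and pairs beyond 2 Mb included. Loops up to 2 Mb on the autosomes and chromosome X held 1187129 and 1369536 of them. Gene expression was not part of these counts, and the identity of the line was not checked against marker genes.

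The clustered protocadherins are cadherin-like adhesion molecules, which neurons display in different combinations at the cell surface and use to tell their own branches from those of other neurons. In the PCDHA and PCDHG clusters, each variable first exon has a promoter of its own and is spliced to exons that all genes of the cluster share, whereas the genes of the PCDHB cluster carry their coding sequence in a single exon. Most of these promoters hold a short conserved element with the letters CGCT, which is bound by the architectural protein CTCF, and in neurons CTCF and cohesin bring chosen promoters to distal enhancers.

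The lists used here held 15 PCDHA genes (140165725–140391932), 19 PCDHB genes with 3 pseudogenes among them (140430959–140628933) and 23 PCDHG genes with 1 pseudogene (140710081–140892542), all transcribed to the right on the plus strand. The sequence that the promoters of a cluster share was searched for in the 300 bases from 250 before to 50 after each start site, read from hg19. The words of 9 letters held by the largest number of promoters differed between the clusters, and all 3 contained CGCT. Among words held equally often, the first in alphabetical order was taken. GATGTCGCT was found in 10 of 15 PCDHA promoters, GGTGGCGCT in 15 of 19 PCDHB promoters and GCGCCGCTG in 11 of 23 PCDHG promoters, in each case in the direction of the gene. None of the 3 words was found in the promoters of another cluster on either strand. Among the promoters of 20098 protein-coding genes, the words were found on either strand in 0.129%, 0.716% and 1.88%, respectively. CGCT alone is common, as 82.2% of these promoters held it on either strand. It was found in 14 of 15 PCDHA, 18 of 19 PCDHB and 21 of 23 PCDHG promoters. The median position of the word was 56.5 bases before the start site in PCDHA and 67 bases before it in both PCDHB and PCDHG. These words were chosen after the sequences were seen, and a match does not show that CTCF was bound. The windows of 30 bases below are those of 3 genes per cluster, shown to let the shared word of each cluster be compared. These genes had the highest counts at anchors within 2.5 kb of the start site among the genes that held the word. The word is in capitals, and positions are given in hg19 on the plus strand.
PCDHA10 (chr5:140235424-140235453): cctaaagccaccgGATGTCGCTgtcgtcca
PCDHA1 (chr5:140165669-140165698): acattggccacatGATGTCGCTgtacacca
PCDHA5 (chr5:140201125-140201154): ctttcatccacatGATGTCGCTggacaccg
PCDHB14 (chr5:140602833-140602862): catggagacacatGGTGGCGCTacaggata
PCDHB5 (chr5:140514759-140514788): aattaggacgcctGGTGGCGCTgcaggcta
PCDHB8 (chr5:140557356-140557385): tgtgaggacccgtGGTGGCGCTgcaggata
PCDHGA1 (chr5:140709969-140709998): gttaggactgtggGCGCCGCTGttcactaa
PCDHGB1 (chr5:140729591-140729620): agacaacctctggGCGCCGCTGtcgaccaa
PCDHGB6 (chr5:140787490-140787519): acggagcctctggGCGCCGCTGtcggccag

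A core of the general CTCF motif, CC and AG with 3 bases of any kind between them, followed after 2 further bases by GGC, was matched on both strands in the same windows. It was found in 0 of 15 PCDHA promoters, in 1 of 19 PCDHB promoters (PCDHB9) and in 0 of 23 PCDHG promoters, compared with 12.9% of all protein-coding promoters. Over whole anchors the order was the other way, as 29 of the 88 anchors of the interval (33.0%) and 22.1% of all anchors held at least 1 match, with 1.47 and 0.960 matches per 10 kb. These letters describe only part of the motif, so their absence from a window is no statement on CTCF.

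The interval held as many anchors as its surroundings, but the anchors carried fewer counts. The density was 117 anchors per Mb (exact 95% Poisson interval, 94.1 to 145), and anchors covered 37.6% of its bases. All intervals given here cover counting error only. The flanks of the same width had 109 anchors per Mb upstream, towards the histidyl-tRNA synthetase genes, and 119 downstream, towards the formin gene DIAPH1, compared with 88.04 over chromosome 5 and 92.1 over the autosomes. Among 3509 autosomal windows of the same width, 30.5% had more than the 88 anchors of the interval, and their median was 83. The GC content of the interval was 41.3%, and it held 2.71 MboI sites per kb, compared with medians of 40.2% and 2.45 over these windows. The 3 clusters were alike in density, with 27 anchors in PCDHA, 23 in PCDHB and 20 in PCDHG and overlapping intervals of 78.7 to 174, 73.6 to 174 and 67.0 to 169 per Mb. The remaining 18 anchors lay between the clusters and at the edges.

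The mean count per anchor in the interval was 7.52 in replicate 1 and 8.98 in replicate 2. Upstream it was 12.6 and 15.2, downstream 11 and 13.1, and over the autosomes 9.57 and 11.04. The interval was therefore below both flanks and below the autosomes in each replicate. It was closer to chromosome 5, with 8.65 and 9.92. Among 3169 autosomal windows of the same width, the medians were 8.76 and 10.1, and 29.4% and 33.8% of windows had lower means than the interval. Anchors of the PCDHG cluster had the lowest mean in replicate 1 (5.60), whereas those of the PCDHA cluster had it in replicate 2 (7.81). Counts that join an anchor with itself, which were left out of all loops, were also fewer, with 0.909 and 0.966 per anchor in the interval, 1.83 and 2.01 upstream and 1.52 and 1.31 downstream. Over the autosomes this value was 1.21 in both replicates.

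**Figure D1:**
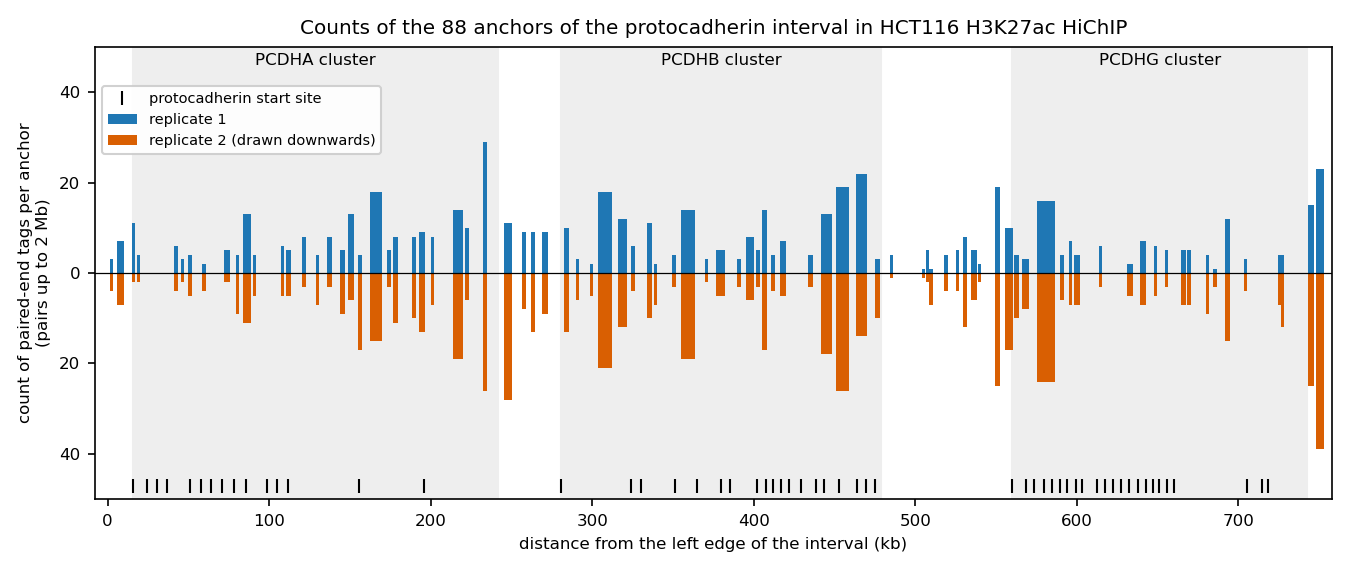
Counts of paired-end tags (y axis) of the 88 anchors of the interval by distance from its left edge in kb (x axis), with replicate 1 drawn upwards, replicate 2 downwards, bars as wide as the anchors (at least 2 kb), and ticks at the start sites of the protocadherin genes. The shaded clusters are the spans of the protocadherin genes, so they hold all start sites drawn. The highest bars include the PCDHA intron anchor with 29 and 26 counts and the anchor with 23 and 39 counts at the right edge.

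Single anchors of the interval ranged from 2 to 62 counts over both replicates, with a median of 12. The 10 deepest anchors held 29.8% of the counts of the 88 anchors, and 3 of the 10 held a protocadherin start site within 2.5 kb. The PCDHB5 anchor, with 33 counts, tied with the last of the 10. Among all anchors, such a start site was held by 9 of 27 in PCDHA, 15 of 23 in PCDHB and 13 of 20 in PCDHG. The 18 anchors outside the clusters held none. The deepest anchor (140898193–140903028) lay in the last intron of DIAPH1, beyond the end of PCDHG, and had 23 and 39 counts in replicates 1 and 2. The next (140382491–140385065) had 29 and 26 counts and lay in the last intron of all 15 PCDHA genes, between exons 3 and 4, which are shared by these genes. The deepest anchors at protocadherin promoters were that of PCDHB14 (140600807–140608797), with 19 and 26 counts, and an anchor of 10703 bp over the first exons of PCDHGA3, PCDHGB1 and PCDHGA4 (140725601–140736303), with 16 and 24 counts. The anchor at TAF7 (140699305–140702630), a single-exon gene of a TFIID subunit between PCDHB and PCDHG, had 19 and 25 counts. Each of these anchors was above the median in each replicate, which was 5 in replicate 1 and 7 in replicate 2. They were named for their high summed counts, so this is a description. Over the 88 anchors the counts of the replicates had a Pearson correlation of 0.793 and a Spearman correlation of 0.630, given as a description because anchors share libraries and neighbours. Wide anchors had more counts (Spearman 0.609 with width), but not more per kb (-0.106).

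Of the 57 protocadherin start sites, 43 (75.4%, exact 95% binomial interval, 62.2 to 85.9%) lay within 2.5 kb of an anchor, compared with 82.5% of all protein-coding genes. The share was 9 of 15 in PCDHA, 16 of 19 in PCDHB and 18 of 23 in PCDHG. Olfactory receptor genes, another family of clustered genes that each cell uses sparingly, had 190 of 415 (45.8%), and HOX genes, which encode the clustered homeobox regulators of body position, had 34 of 39 (87.2%). In narrower windows, the protocadherin share lay below that of all protein-coding genes. Within 1 kb it was 54.4% (40.7 to 67.6%), compared with 73.1%. At the start site itself it was 45.6% (32.4 to 59.3%), compared with 63.7%. The promoters also differed in their counts. The deepest anchor at a start site had a median of 12 counts for the protocadherins, 14 for olfactory receptor genes, 49 for HOX genes and 29 for all protein-coding genes with an anchor, both replicates summed.

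In the PCDHA cluster, the genes with an anchor ranged from 6 to 24 counts. PCDHA10 was highest, with 13 and 11 counts in replicates 1 and 2, followed by PCDHAC2 with 9 and 13 and PCDHAC1 with 4 and 17, the 2 C-type genes next to the constant exons. PCDHA1 had 11 and 2 counts, so its replicates differed more than those of PCDHA10. PCDHA2, PCDHA3, PCDHA4, PCDHA7, PCDHA11 and PCDHA12 had no anchor within 2.5 kb. In the PCDHB cluster, the range was 7 to 45 counts. After PCDHB14, the genes with the highest counts were PCDHB5 (14 and 19), PCDHB8 (14 and 17) and PCDHB13 (13 and 18), together with the pseudogenes PCDHB18P and PCDHB19P, which shared 1 anchor with 22 and 14. The PCDHB5 anchor (140504987–140513605) overlapped the exon of PCDHB4 and did not come within 1 kb of the PCDHB5 start site. PCDHB3, PCDHB11 and the pseudogene PCDHB17P had no anchor within 2.5 kb. In the PCDHG cluster, the range was 7 to 41 counts. PCDHGA1, the first gene, had 14 and 27 counts over 2 anchors. Of the C-type genes at the other end, PCDHGC3 had 3 and 4 counts, and PCDHGC4 and PCDHGC5 had no anchor. PCDHGA8, PCDHGB5 and PCDHGA12 had none either. None of the constant exons of PCDHA or of PCDHG overlapped an anchor, so contacts of these exons could not be counted.

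Most loops of the interval were single tags. A count of 1 was found for 91.0% of the loops of replicate 1 and 88.9% of those of replicate 2, and the highest counts were 6 and 11. Loops with counts of at least 5 numbered 2 of 365 (0.548%, exact 95% binomial interval, 0.0664 to 1.97%) and 1 of 424 (0.236%, 0.00597 to 1.31%). Over all loops up to 2 Mb, 0.493% and 0.596% reached this count, and both intervals include these shares. With the counts of both replicates summed, however, 2 of 736 loops reached it (0.272%, 0.0329 to 0.978%), which lay below the 1.47% of all loops. The loops shared by both replicates were 14.5% (11.1 to 18.6%) of those in replicate 1 and 12.5% (9.51 to 16.0%) of those in replicate 2, compared with 19.7% and 17.4% over all loops. The loops had a median length of 188 and 183 kb, compared with 143 and 149 kb over all loops. A loop was taken when either anchor overlapped the interval, so longer loops could qualify at more positions than shorter ones. The lengths and shares set beside those of all loops are thus a description. Both anchors lay in the interval for 57.8% and 58.3% of the loops, the upstream flank held the other anchor for 17.3% and 17.2%, and the downstream flank for 24.9% and 24.5%.

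To ask which contacts were more frequent than distance and anchor depth give, the observed counts of a class of anchor pairs were summed and divided by the expected counts. The expectation was fitted on all 51094598 anchor pairs up to 2 Mb, pairs without counts included, in 60 classes of distance with weights that give each anchor its own total. Since these totals are fixed, fewer contacts in one class of an anchor raise the ratio of another, so ratios to distance alone are given too. Ratios are those of both replicates summed unless a replicate is named, and their exact 95% Poisson intervals hold the expectation as known.

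Contacts inside the interval were more frequent than expected, and contacts that left it were less frequent. Pairs with both anchors in the interval had 251 counts in replicate 1, where 202 were expected, and 303 in replicate 2, where 243 were expected, a ratio of 1.25 (1.14 to 1.35). Contacts with the upstream flank had 63 and 75 counts and a ratio of 0.519 (0.436 to 0.613), and those with the downstream flank had 97 and 109 counts and a ratio of 0.695 (0.603 to 0.796). The ratio inside divided by the ratio across the edges was 2.00 in replicate 1 and 2.07 in replicate 2. Among 3165 autosomal windows of the same width, the median of this quotient was 0.993, and 18 windows (0.569%) were above the 2.04 of the summed counts. The edges of the interval follow the clusters whereas those of the windows fall anywhere, so the position among them is a description. With distance alone, the ratio inside fell to 0.876 (0.805 to 0.953), which 52.2% of 3169 windows exceeded, and the ratio across the edges was 0.569, which 94.7% exceeded. The fewer contacts with the flanks were thus found under both expectations, and the excess inside only relative to the depth of the anchors.

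Within each cluster, the counts were close to the expectation. Pairs inside PCDHA had 46 and 46 counts and a ratio of 1.07 (0.859 to 1.31), pairs inside PCDHB had 41 and 48 counts and a ratio of 1.10 (0.887 to 1.36), and pairs inside PCDHG had 16 and 33 counts and a ratio of 1.17 (0.863 to 1.54). All 3 intervals include 1. With distance alone, the ratios were 0.688 (0.554 to 0.844) for PCDHA, 0.856 (0.687 to 1.05) for PCDHB and 0.602 (0.445 to 0.796) for PCDHG.

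Contacts between different clusters lay above the expectation. PCDHA and PCDHB were joined by 32 and 26 counts, a ratio of 1.42 (1.08 to 1.84), and PCDHB and PCDHG by 16 and 21 counts, a ratio of 1.504 (1.06 to 2.07). The clusters at the ends, PCDHA and PCDHG, were joined by 8 and 10 counts, a ratio of 1.45 (0.860 to 2.29), whose interval includes 1. Taken as 1 class, contacts between clusters had a ratio of 1.53 in replicate 1 and 1.38 in replicate 2, or 1.45 (1.20 to 1.75) summed, compared with 1.10 (0.963 to 1.25) within clusters. The ratio between clusters was 1.32 times that within them (exact conditional 95% interval, 1.04 to 1.66), and 1.49 times (1.18 to 1.87) with distance alone. The interval of this quotient included 1 in replicate 2 alone (1.18, 0.851 to 1.63) but not in replicate 1 alone (1.49, 1.05 to 2.08). Pairs between clusters were farther apart, with a median distance of 315 kb compared with 62.4 kb within clusters. Among pairs of 20 kb or more, the ratio within clusters rose to 1.24 and the quotient fell to 1.17 (0.904 to 1.52), which includes 1, whereas with distance alone it was 1.36 (1.05 to 1.77). At 100 to 200 kb, where both kinds of pair had counts (37 between and 21 within), the quotient was 1.33 (0.761 to 2.40), and 1.596 (0.910 to 2.87) with distance alone. A difference between these kinds of contact was thus not detectable in this class of distance. With distance alone, the ratio between clusters was 1.07 (0.883 to 1.29).

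Each cluster contacted the upstream flank less than expected. The ratio was 0.589 (0.458 to 0.745) for PCDHA with 33 and 36 counts, 0.456 (0.310 to 0.647) for PCDHB with 18 and 13 counts and 0.445 (0.237 to 0.761) for PCDHG with 7 and 6 counts. For the downstream flank it was 0.805 (0.572 to 1.10) for PCDHA with 22 and 17 counts, 0.703 (0.524 to 0.925) for PCDHB with 22 and 29 counts and 0.701 (0.536 to 0.901) for PCDHG with 30 and 31 counts. Over the 3 clusters the downstream ratio of 0.726 was 1.38 times (1.07 to 1.77) the upstream ratio of 0.527. The interval of this quotient included 1 in each replicate alone. The ratio between clusters was 2.76 times (2.10 to 3.61) that of the clusters with the upstream flank and 2.00 times (1.55 to 2.57) that with the downstream flank, and both quotients stayed above 1 with distance alone, at 2.23 (1.70 to 2.92) and 1.70 (1.32 to 2.19). These values pool pairs whose median distances differ, at 1169 and 1228 kb with the flanks. At 400 to 750 kb and with distance alone, the quotients were 2.13 (1.21 to 3.68) upstream and 1.77 (1.02 to 2.99) downstream, but at 200 to 400 kb they were 1.26 (0.774 to 2.09) and 1.41 (0.843 to 2.41), and both of these intervals include 1.

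**Figure D2:**
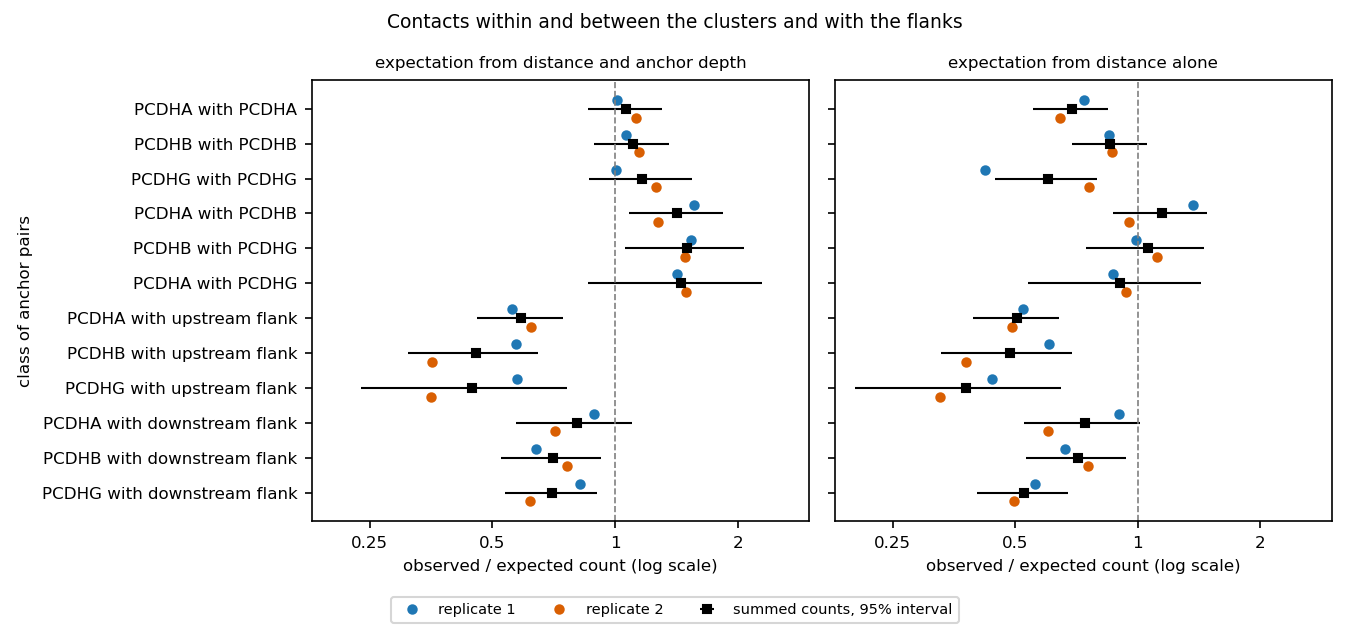
Observed over expected counts on a log axis (x axis) for 12 classes of anchor pairs (y axis), with the expectation from distance and anchor depth on the left and from distance alone on the right. Circles are replicates and squares summed counts with exact 95% intervals; all 6 flank classes lie below 1 in both panels, while the 3 classes between clusters lie above 1 on the left and near 1 on the right.

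At matched distance, contacts inside the interval exceeded those with both flanks under both expectations between 400 and 750 kb, while at shorter distances the comparison depended on the expectation. Between 400 and 750 kb, pairs inside the interval had 16 and 18 counts where 9.14 and 11.3 were expected, a ratio of 1.66 (1.15 to 2.32). At the same distances the ratio was 0.570 (0.416 to 0.762) with the upstream flank and 0.673 (0.504 to 0.881) with the downstream flank. The ratio inside was thus 2.92 times (1.81 to 4.66) that with the upstream flank and 2.47 times (1.56 to 3.87) that with the downstream flank, and with distance alone 1.96 times (1.22 to 3.13) and 1.75 times (1.10 to 2.74). At 200 to 400 kb these quotients were 1.66 (1.09 to 2.60) and 1.62 (1.07 to 2.49), and with distance alone both intervals included 1, at 1.22 (0.794 to 1.90) and 1.29 (0.855 to 1.99). At 100 to 200 kb they were 1.85 (0.995 to 3.83) and 1.31 (0.831 to 2.16), and with distance alone 2.15 (1.15 to 4.43) and 0.982 (0.621 to 1.62), where the interval and the upstream flank shared 11 counts. At 40 to 100 kb, they were 1.52 (0.576 to 5.68) and 1.02 (0.583 to 1.94), and with distance alone 2.18 (0.828 to 8.17) and 0.516 (0.294 to 0.976). In that class, contacts with the downstream flank therefore exceeded those inside when anchor depth was left out. Inside the interval the ratio was lowest at the shortest distances, at 1.06 (0.899 to 1.24) below 20 kb. The flanks' own pairs at 400 to 750 kb had ratios of 1.04 (0.743 to 1.42) upstream and 0.960 (0.665 to 1.34) downstream. The ratio inside the interval was 1.599 times (0.982 to 2.59) the former and 1.73 times (1.04 to 2.87) the latter. With distance alone, the order upstream was turned, as the ratio was 1.10 (0.760 to 1.53) in the interval and 1.57 (1.12 to 2.13) in the upstream flank, a quotient of 0.700 (0.430 to 1.13), and the quotient with the downstream flank was 1.09 (0.657 to 1.81).

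**Figure D3:**
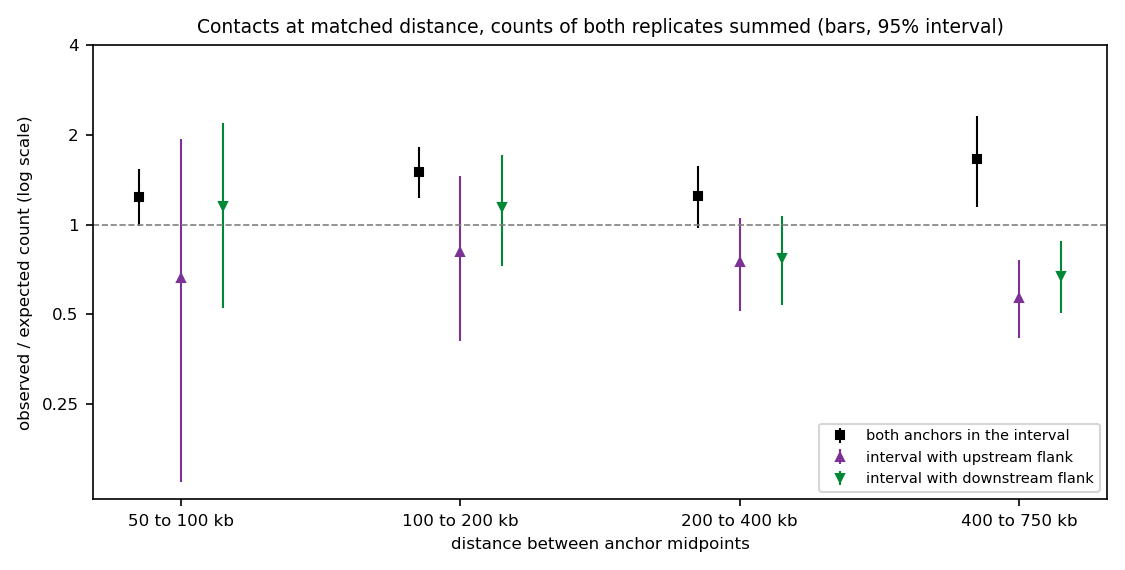
Observed over expected counts on a log axis (y axis) in 4 classes of distance between anchor midpoints (x axis), for pairs inside the interval and for pairs that join it with either flank, with the expectation from distance and anchor depth; symbols are summed counts and bars exact 95% intervals. At 400 to 750 kb the ratio inside is 1.66, above 0.570 upstream and 0.673 downstream.

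The ratio was also followed by distance from the edge, and the intervals of the upstream and downstream flanks overlapped in each step. Upstream, it was 0.742 (0.584 to 0.928) within 250 kb of the edge, with 38 counts in each replicate, then 0.498, 0.388 and 0.247 in the next 3 steps of 250 kb. Downstream, the first 250 kb had 55 and 59 counts and a ratio of 0.944 (0.779 to 1.13), and the next step fell to 0.443 (0.290 to 0.650) with 11 and 15 counts. In the following steps, the downstream ratio was 0.470, 0.536 and 0.839, the last with an interval of 0.497 to 1.33.

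**Figure D4:**
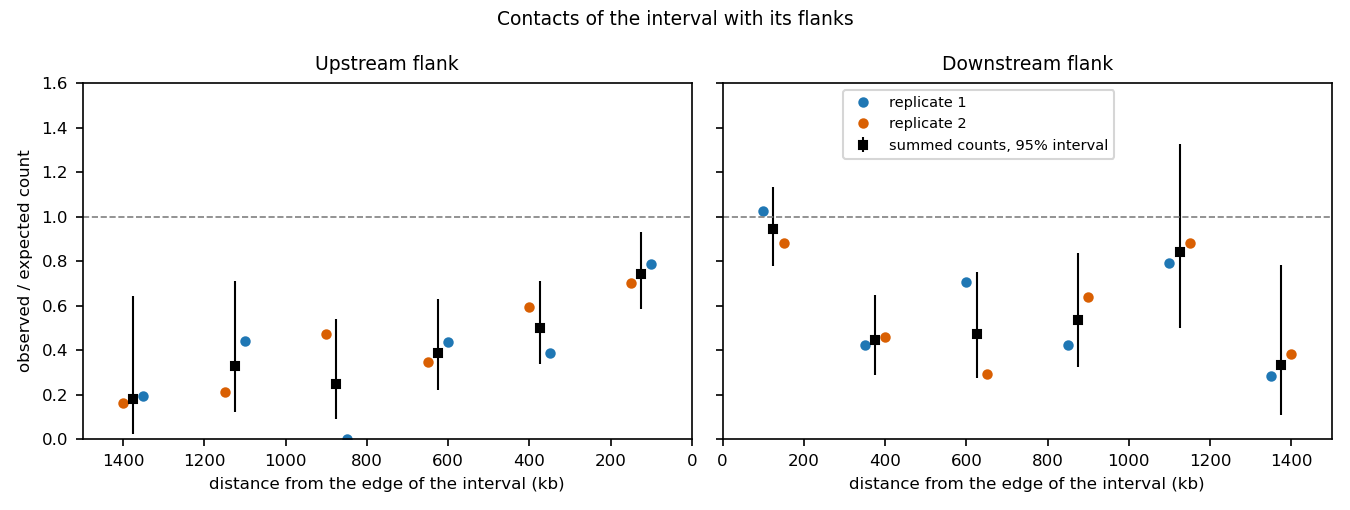
Observed over expected counts of contacts of the interval (y axis) by distance of the flank anchor from the edge in kb (x axis, upstream flank drawn to the left), in steps of 250 kb up to 1500 kb; circles are replicates and squares summed counts with exact 95% intervals. The first downstream step lies at 0.944 and the first upstream step at 0.742, and later steps lie between 0.179 and 0.839.

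Of the 114 counts of the first downstream step, 46 were those of 3 anchors in DIAPH1, which encodes a formin that assembles actin filaments and lies on the minus strand (140894588–140998567) with its 3′ end next to PCDHG. The flank anchor with the most contacts (140942443–140946763), in the intron between exons 18 and 19 of DIAPH1, had 12 counts in each replicate with 15 different anchors of the interval, a ratio of 2.00 (1.28 to 2.97). Of these counts, 9 were with PCDHG, 8 with PCDHB and 2 with PCDHA. A second anchor in the same intron (140936500–140939576) had 6 and 8 counts and a ratio of 2.30 (1.26 to 3.85), and another (140931691–140933622) had 5 and 3 counts and a ratio of 2.43 (1.05 to 4.79). These 3 anchors had the highest ratios among the downstream anchors with the most counts, so the ratios are a description. Another DIAPH1 anchor (140909173–140911293) had 4 and 6 counts and a ratio of 1.32 (0.635 to 2.44). Without the 3 anchors, the first downstream step had 68 counts and a ratio of 0.684 (0.531 to 0.868), beside 0.742 upstream. Leaving out the highest ratios lowers this value by construction. The promoter anchor of DIAPH1 itself had 2 counts with the interval where 2.496 were expected.

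Promoters of the flanks contacted the interval in few counts each. Of 21 upstream genes listed, 18 had at least 1 count with the interval, and 13 had counts in both replicates. Of 13 downstream genes, 12 had at least 1 count and 4 had counts in both replicates. The highest were FCHSD1, which encodes an F-BAR and SH3 domain protein, with 4 and 5 counts (13.8 expected), and the vault RNA genes VTRNA1-1 and VTRNA1-2, with 2 and 6 counts (8.70 expected) and 3 and 5 counts (7.58 expected). WDR55, with 4 and 1 counts, and TMCO6, with 3 counts summed, stayed below the 8.004 and 7.84 expected. HDAC3, a histone deacetylase, shared an anchor with RELL2 that had 2 and 4 counts where 4.67 were expected. CD14, the co-receptor for bacterial lipopolysaccharide, and PURA had no counts with the interval where 2.55 and 2.38 were expected. Genes that share an anchor cannot be told apart here, and each of them was counted. The downstream list reached farther from the interval than the upstream list, out to FGF1, where 0.567 counts were expected. The numbers of genes with counts therefore do not compare the 2 sides.

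The strongest single loop joined neighbouring anchors at the right edge (140893263–140896722 and 140898193–140903028), over the last exon and the last intron of DIAPH1, with 6 and 11 counts at a distance of 5.62 kb. When anchor depth was computed without the pair's own count, 4.91 were expected, a ratio of 3.46 (2.02 to 5.54). This was the lowest adjusted p of the interval (0.927, one-sided Poisson, adjusted by Benjamini-Hochberg over all anchor pairs). None of the 37170 anchor pairs of the interval was called at an adjusted p under 0.01, where 31 of 51094598 pairs were called overall (6.07e-05%). At an unadjusted p under 0.05, 308 pairs of the interval (0.829%) and 1.35% of all pairs passed. With the expectation from distance alone, the same one-sided exact Poisson tail called this DIAPH1 pair (adjusted p = 4.09e-07) and no other pair of the interval, where 0.01% of all pairs were called. The loops named below are therefore those with the highest counts, and none passed the test.

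Within the PCDHB cluster, the highest count joined the PCDHB14 anchor with that of the pseudogenes PCDHB18P and PCDHB19P (140613618–140620090), with 5 and 2 counts at 12.1 kb. For this pair 3.63 were expected summed, a ratio of 1.93 (0.774 to 3.97). PCDHB14 was also joined with PCDHB8 (140554940–140558283), with 2 counts in each replicate at 48.2 kb where 0.865 were expected summed, and with PCDHB13 (140591656–140598262), with 2 counts in each replicate at 9.84 kb where 4.46 were expected. The anchor of PCDHB14 thus had counts in both replicates with 3 other PCDHB anchors. Of these pairs, only that with PCDHB8 had a ratio whose interval lay above 1, at 4.62 (1.26 to 11.8). The pairs of PCDHB14 with the pseudogenes and with PCDHB13 shared 171 and 227 sequences of 50 bases, the length of the reads, and the part of ambiguous read placement in these counts was not tested. Of the 24 loops named by count, these were the 2 whose anchors shared any such sequence. Of all 50-base sequences of the interval, 6.79% occurred more than once in the genome, compared with 6.54% and 5.27% in the upstream and downstream flanks, and the share was 10.1% in PCDHB, 6.08% in PCDHA and 6.07% in PCDHG.

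At 20 kb or more, the highest counts included 3 loops of the wide anchor over PCDHGA3, PCDHGB1 and PCDHGA4. In this list, 10 loops tied at the lowest count of 3, and ties went to the longer distance, where fewer counts are expected. It was joined with the DIAPH1 anchor at 140942443–140946763 by 2 counts in each replicate at 214 kb, where 0.351 were expected summed, a ratio of 11.4 (3.11 to 29.2). It was joined with the PCDHA10 anchor (140233897–140238935) by 1 and 2 counts at 495 kb, where 0.0885 were expected, and with an anchor between PCDHB1 and PCDHB2 (140465921–140471581) by 1 and 2 counts at 262 kb, where 0.164 were expected. Each of these loops was seen in both replicates, and the wide anchor had partners in PCDHA, PCDHB and the downstream flank. Both anchors of its loop with DIAPH1 held matches to the CTCF core, as did 9 of the 29 anchors of the named loops (31.03%), close to the 33.0% of all anchors of the interval. The matches are shown here as windows of 30 bases in hg19 with the match in capitals, read on the strand that holds it.
PCDHG anchor, minus strand (chr5:140725759-140725788): ctcccgaagCCTGCAGCAGGCgtgacttgt
PCDHG anchor, minus strand (chr5:140734808-140734837): ccagaacccCCAGGAGAAGGCagatctgga
PCDHG anchor, plus strand (chr5:140734926-140734955): gttggcgccCCGGGAGCTGGCggagcgcgg
DIAPH1 anchor, minus strand (chr5:140943953-140943982): tgctttcagCCACCAGATGGCacatggatc

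The intron anchor of PCDHA at 140382491–140385065 was joined with 2 anchors past the end of the cluster, at 140406978–140408648 by 3 and 1 counts and at 140395401–140400431 by 3 and 1 counts, where 0.902 and 4.38 were expected summed. PCDHAC2 was joined with 140395401–140400431 by 1 and 2 counts at 53.3 kb, where 0.414 were expected. Among the loops with a flank, 12 tied at the lowest listed count of 2, and the longer ones were taken. Of these, the anchor named for PCDHB5, which overlapped PCDHB4, had 1 count in each replicate with the DIAPH1 anchor at 140936500–140939576, at 429 kb. The anchor shared by PCDHGB6 and PCDHGA10 had 1 count in each replicate with another DIAPH1 anchor (140925122–140926360), at 135 kb. The 10 loops with the highest counts at 20 kb or more had ratios of 2.16 to 33.9, which follows from choosing high counts among pairs of low expectation.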

How the data were processed

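H3K27ac HiChIP libraries of HCT116 cells (2 replicates, 50-bp paired ends) were analysed from the loop tables. The authors aligned reads and called valid pairs with HiC-Pro on hg19, both named in the submitters' processing notes, and obtained loops with hichipper, whose version and anchor settings are not given in the sources used here. The deposited values are raw counts of paired-end tags per anchor pair, without normalization. Tags with both ends in the same anchor were left out. Positions are 1-based, and genes were taken from GENCODE release 44 lifted to GRCh37 (canonical transcripts). Expected counts were fitted on each replicate and on the sum, with 60 distance classes and anchor weights balanced in 20 rounds. Single pairs were tested with a one-sided Poisson tail, the own count being excluded from the anchor depth (offset 0.5), and adjusted by Benjamini-Hochberg over all pairs up to 2 Mb. The procedure was tested on simulated data. The members, lists and tests were chosen with earlier results of these data known. Genes named are the 57 protocadherin genes, the other genes of the interval and 34 flank genes. Those at the 10 loops with the highest counts (of all, at 20 kb or more, and with a flank) were also named. Ties in count went to the longer distance. Other anchors were named for their counts, and some DIAPH1 anchors for their ratios. Alternatives were the distance limit, the minimum count, weighting by count, the expectation, the promoter width and each replicate left out. Tables hold no molecular identifiers, so depth sets the precision: 411 and 487 counts in the interval. Python 3.11.15 was used with numba 0.67.0, numpy 2.4.6, scipy 1.17.1, pandas 2.3.3, matplotlib 3.10.9 and pysam 0.24.0.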

Additional observations from a re-analysis of the deposited data

How the results depend on the processing

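No paired analysis was possible because there was only 1 group. With the expectation from distance alone, contacts within PCDHA (0.688) and within PCDHG (0.602) reversed to below 1, those within PCDHB (0.856) and of PCDHA with PCDHG (0.906) also fell below 1 with intervals that include 1 under both expectations, and the intervals of PCDHA with PCDHB (1.15) and PCDHB with PCDHG (1.06) came to include 1, while 1 anchor pair was called instead of 0. By construction, that expectation leaves out the depth of the anchors. With 1 replicate left out, PCDHA with PCDHB ranged from 1.27 to 1.56, PCDHB with PCDHG from 1.48 to 1.54, PCDHG with the upstream flank from 0.354 to 0.576, and PCDHB and PCDHG with the downstream flank from 0.639 to 0.760 and from 0.620 to 0.818, and in each of these the interval included 1 in at least 1 replicate, which has fewer counts. Up to 1 Mb, PCDHG with the upstream flank (0.541) and PCDHB with the downstream flank (0.771) came to include 1. Up to 1 Mb, the median length was 154 kb and 63.7% of loops lay inside the interval, compared with 186 kb and 58.0%. With counts of at least 2, a mean of 40 loops per replicate was left, 4.09% of them had counts of at least 5, the median length was 23.4 kb and 86.5% lay inside. Weighted by count, 61.6% lay inside. Protocadherin start sites with an anchor were 54.4% within 1 kb and 45.6% at the start site itself, compared with 75.4% within 2.5 kb. For all protein-coding genes, these shares were 73.1%, 63.7% and 82.5%. The other 57 values kept their direction and their side of the threshold, or, where no test was made, moved by no more than the spread between replicates or their interval. Low counts widen all intervals given here.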

Other observations

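The 18 anchors of the interval outside the clusters differed between replicates in their contacts with the upstream flank, with 5 counts in replicate 1 where 21.7 were expected and 20 in replicate 2 where 29.98 were expected. Contacts of PCDHA with these anchors had 31 and 30 counts, a ratio of 1.62 (1.24 to 2.08), and stayed above 1 with distance alone, at 1.35 (1.03 to 1.73). This ratio was the highest of all classes of pairs. In replicate 1 alone, both intervals lay above 1. In replicate 2 alone, both included 1, at 1.46 (0.988 to 2.09) and, with distance alone, 1.23 (0.831 to 1.76). Sequences of 50 bases shared between clusters numbered 430 for PCDHA and PCDHB, 265 for PCDHB and PCDHG and 90 for PCDHA and PCDHG, of 223116, 190051 and 179753 different sequences in PCDHA, PCDHB and PCDHG. The upstream flank had 64 anchors with at least 1 count with the interval, and the downstream flank had 86. The flanks offered different numbers of anchor pairs, 15684 upstream and 17658 downstream, with 266 and 297 counts expected. The numbers of anchors therefore do not compare the 2 sides.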
